A study of Mus musculus with 35 samples.

Results

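SatM of the bone marrow were compared with inflammatory monocytes of the bone marrow, with 2 arrays of each cell type, which are 4 of the 35 arrays of a survey of flow-sorted mouse immune cells. Arrays were assigned to the 2 groups by their titles alone, and no measured value entered that assignment. The comparison itself was chosen with earlier results of these data known. SatM (segregated-nucleus-containing atypical monocytes) are Ly6C-negative cells that the labels link with fibrosis, and inflammatory monocytes are the classical monocytes of the marrow. All mice were male C57BL/6J animals of 8 weeks, and the labels name no allele and no treatment of the animals. The fit also held 16 further arrays from mice of the same strain, sex and age, to share the spread used in the tests. These were the progenitors SMP (the progenitor that the labels name for SatM), SMP_WT, cMoP (the common monocyte progenitor) and cMoP_WT with 2 arrays each, GMP and MDP with 1 each, all from marrow, and basophils, eosinophils and neutrophils of the spleen with 2 each. The single GMP and MDP arrays added nothing to the spread, because each had a term of its own. A separate tissue panel of 15 arrays held 1 further SatM array each from marrow, blood, spleen and lung lavage. The labels do not say whether the arrays of a group came from separate mice or pooled cells, so p-values here measure only the spread between arrays, which may be technical.

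Monocytes leave the marrow as classical cells that are recruited to inflamed tissue, and some of them turn into nonclassical cells that patrol the inner wall of blood vessels. The nonclassical cells are known in the mouse for the Fc receptor Fcgr4, the integrins CD11c and LFA-1, high CX3CR1 and CD43, and a need for the nuclear receptor Nr4a1 and the factor Cebpb. Classical cells are known for Ccr2, coagulation factor XIII and matrix genes. Which genes other than those of granules and the interferon response set SatM apart was examined here, by surface receptors, adhesion, matrix, metabolism, transcription factors and signalling.

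The genes that mark the 2 cell types are shown first with the DNA at their transcription start sites, because Fcgr4 and Itgax were high in SatM while F13a1 and Vcan were high in inflammatory monocytes. Each stretch, from RefSeq on build GRCm38.p6, runs 5′ to 3′ on the strand of the gene, from 250 bases before the start to 30 bases after it. Capitals mark TGTGGT, the core letters of RUNX sites, and GAGGAA, core letters of PU.1 sites, each on either strand, so that ACCACA and TTCCTC are their complements, and no 2 of the marked matches overlapped. F13a1 has 2 listed starts.
Fcgr4, chr1:171018676-171018955, plus strand: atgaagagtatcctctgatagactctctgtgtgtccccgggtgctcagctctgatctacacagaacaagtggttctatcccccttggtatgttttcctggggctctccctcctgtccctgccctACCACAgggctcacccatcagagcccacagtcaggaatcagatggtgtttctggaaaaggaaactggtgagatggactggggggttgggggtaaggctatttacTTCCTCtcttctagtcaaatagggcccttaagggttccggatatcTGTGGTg
Itgax, chr7:128129300-128129579, plus strand: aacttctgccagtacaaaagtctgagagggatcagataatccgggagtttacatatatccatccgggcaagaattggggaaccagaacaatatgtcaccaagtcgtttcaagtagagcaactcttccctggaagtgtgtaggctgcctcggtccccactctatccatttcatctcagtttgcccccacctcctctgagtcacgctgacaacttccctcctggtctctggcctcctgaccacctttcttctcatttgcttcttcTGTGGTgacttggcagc
F13a1, first start, chr13:37050215-37050494, minus strand: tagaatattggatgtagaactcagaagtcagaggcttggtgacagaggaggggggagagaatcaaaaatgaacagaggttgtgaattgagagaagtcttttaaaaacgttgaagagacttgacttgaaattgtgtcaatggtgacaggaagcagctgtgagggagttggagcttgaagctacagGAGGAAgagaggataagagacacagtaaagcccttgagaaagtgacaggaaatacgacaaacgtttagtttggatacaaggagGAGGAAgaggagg
F13a1, second start, chr13:37049184-37049463, minus strand: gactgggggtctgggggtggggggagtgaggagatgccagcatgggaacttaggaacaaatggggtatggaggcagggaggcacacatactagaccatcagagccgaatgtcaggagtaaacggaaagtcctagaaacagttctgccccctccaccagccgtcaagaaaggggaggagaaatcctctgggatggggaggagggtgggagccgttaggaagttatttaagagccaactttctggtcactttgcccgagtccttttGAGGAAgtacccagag
Vcan, chr13:89742483-89742762, minus strand: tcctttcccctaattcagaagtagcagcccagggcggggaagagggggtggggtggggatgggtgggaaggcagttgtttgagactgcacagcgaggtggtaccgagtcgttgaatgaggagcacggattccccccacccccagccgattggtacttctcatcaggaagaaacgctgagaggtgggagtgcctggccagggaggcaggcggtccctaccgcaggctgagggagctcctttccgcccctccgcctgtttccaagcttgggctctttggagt

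The RUNX letters stood 2 times in the Fcgr4 stretch and 1 time in the Itgax stretch, and in none of the F13a1 and Vcan stretches. The PU.1 letters stood 1 time at Fcgr4, 2 times and 1 time at the 2 starts of F13a1, and not at Itgax or Vcan. Across the 32851 stretches of the table, 15.61% held the RUNX letters and 25.98% the PU.1 letters. The stretches of genes higher in SatM held the RUNX letters in 11.68% of 274 and the PU.1 letters in 29.2%, those of genes lower in SatM held them in 11.98% and 25.4% of 626, and those of all 9773 tested genes with a stretch held them in 11.95% and 25.31%. C/EBP letters (TTGCNNAA, either strand) were in 8.029%, 6.709% and 8.012% of these 3 sets, and AP-1 letters (TGANTCA, either strand) in 5.474%, 8.147% and 4.901%. A match is a run of letters and not a measured site.

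Values are log2 expression values of 1 probe set per gene, the set whose mean over the 35 arrays was highest. The lowest value, 2.30, is a floor that 44.8% to 48.5% of the probe sets of an array shared, so a difference from a group at the floor is a lower bound. Arrays tied at the floor show no spread, so the SE and p of a gene at the floor on many arrays can be too small. For such a gene a call kept with an array left out is weak support. Fluorescence arrays have no read depth, so the precision rests on how many arrays there are. Across the 12077 genes tested, the SatM arrays correlated at Pearson r = 0.973 and the inflammatory monocyte arrays at 0.996, a description across genes that are not independent replicates. The median SD of a gene was 0.18 in SatM and 0.08 in inflammatory monocytes. The SatM arrays differed from each other by at least 2 on the log2 scale in 351 genes, against 10 genes for the inflammatory monocyte arrays.

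Genes of other blood cells were read on the same arrays. Of 7 eosinophil genes 4 were higher in SatM, and their summed level on the linear scale was 9333 and 3468 in SatM, against 39.6 and 37.8 in inflammatory monocytes. The eosinophil receptors Ccr3 and Il5ra lay at the floor on all 4 arrays. Of 10 neutrophil genes 2 were higher (1 without SatM replicate 1 or inflammatory monocyte replicate 1 and 0 without SatM replicate 2 or inflammatory monocyte replicate 2) and 1 lower (0 with any 1 of the 4 arrays left out), with sums of 30690 and 48960 in SatM, against 16060 and 8562 in inflammatory monocytes. None of the B cell, T cell, NK cell, erythroid or megakaryocyte genes passed the test (limma, 2 of 28 at an unadjusted p under 0.05), and their 5 sums lay between 35.1 and 218.6 in SatM and between 34.6 and 201.7 in inflammatory monocytes. Of 9 basophil and mast cell genes 1 was higher, of 8 dendritic cell genes 2 were lower, of 8 tissue macrophage genes 1 was higher and 2 lower, and of 11 progenitor and cell cycle genes 2 were lower. Of these, 1 dendritic cell call and the higher macrophage call held with each array left out. The basophil and mast cell sums were 96.8 and 177.8 in SatM, against 79.1 and 67.6 in inflammatory monocytes. Tissue macrophage genes summed to 241.1 and 339.1 in SatM, against 469.1 and 608.7 in inflammatory monocytes. Dendritic cell genes summed to 1575 and 1706 in SatM, against 1837 and 2046 in inflammatory monocytes, and progenitor and cell cycle genes to 1212 and 779.1 in SatM, against 821.1 and 705.3 in inflammatory monocytes. In sorted bulk samples, fewer cells of a type and less RNA per cell cannot be told apart. The part of such cells in the results below was not tested. Values of spleen eosinophils and neutrophils stand beside some of the genes named below. A gene without such a value may be held by those cells too.

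The marrow SatM array of the tissue panel stood apart from the 2 SatM arrays of the comparison in genes of classical monocytes. It measured 11.33 for F13a1, 10.57 for Fn1 and 9.49 for Vcan, which were at most 3.79 on both SatM arrays. It was high in the SatM genes too, with 12.62 for Fcgr4 and 11.82 for Fabp4. It correlated with the SatM arrays at r = 0.919 and 0.917 and with the inflammatory monocyte arrays at r = 0.908 and 0.907 across the tested genes. It was left out of the main comparison, and adding it gave 972 called genes, 292 higher and 680 lower.

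A gene was called where limma's moderated test gave a Benjamini-Hochberg adjusted p under 0.05 and the log2 difference, SatM minus inflammatory monocytes, was at least 1 in size. Of the 12077 genes, 1128 were called (9.34%), 347 higher in SatM (2.87%) and 781 lower (6.47%). Counts of list members below are to be read beside these shares, and several lists lie near them. The arrays of the 2 cell types did not overlap in 56.6% of all genes tested, so lack of overlap alone says little with 2 arrays a group. An exact permutation test of 2 against 2 arrays cannot go below p = 0.333, which is why the tests rest on the fit across all genes. The median difference was 2.19 for the genes called higher, -2.01 for those called lower and -0.02 for all genes tested. The fold was at least 16, a log2 difference of 4, for 54 genes called higher and 67 called lower. With each of the 4 arrays left out in turn, 440 genes kept their call every time, 150 higher and 290 lower. Left out alone, inflammatory monocyte replicate 1 lowered the count to 552 and replicate 2 to 538. The lower calls fell to 497 without SatM replicate 2. Genes named as higher or lower below kept their call in all 4 of these fits unless the text gives the p without an array or says otherwise.

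**Figure D1:**
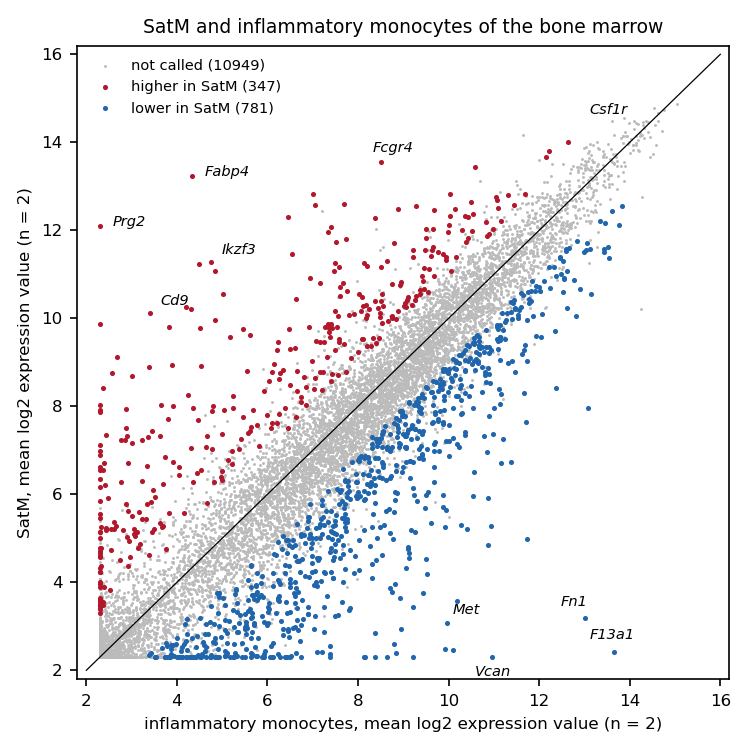
Mean log2 expression value of each of the 12077 genes tested in SatM (vertical axis, n = 2) against inflammatory monocytes (horizontal axis, n = 2), with the line of equal level. The 347 genes called higher in SatM lie above the line and the 781 called lower lie below it, 44 of them with SatM at the floor of 2.30.

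The marker genes Fcgr4, Itgax, F13a1 and Vcan separated the 2 groups of arrays. Fcgr4, the activating receptor for IgG2 antibodies, measured 13.40 and 13.69 in SatM, against 8.37 and 8.66 in inflammatory monocytes. Both SatM arrays stood far above both inflammatory monocyte arrays, with a log2 difference of 5.03 ± 0.47 (SE, adjusted p = 1.76e-05), a 32.7-fold higher level. Itgax, the CD11c integrin chain, measured 10.14 and 10.27 in SatM, against 3.87 and 4.75 in inflammatory monocytes. The groups did not overlap, and the log2 difference was 5.89 ± 1.04 (adjusted p = 0.00262).
F13a1, the transglutaminase subunit of coagulation factor XIII, measured 2.44 and 2.40 in SatM, against 13.59 and 13.72 in inflammatory monocytes. It was near the floor in SatM and far above it in inflammatory monocytes, and its log2 difference was -11.23 ± 0.42 (adjusted p = 3.48e-09). Vcan, the matrix proteoglycan versican, lay at the floor of 2.30 on both SatM arrays and measured 11.04 and 10.86 in inflammatory monocytes. It was thus at least 403-fold lower in SatM (adjusted p = 6.56e-06).

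Genes of monocytes in general did not pass the test at the probe sets used here. Csf1r, the growth factor receptor of the monocyte lineage, measured 14.49 and 14.44 in SatM, against 14.29 and 14.52 in inflammatory monocytes, with overlapping arrays (adjusted p = 1). Of its 3 probe sets, which differed by 0.06 to 1.38, 1 was called higher by itself. Cebpb measured 10.93 and 10.76 in SatM and 9.72 and 9.79 in inflammatory monocytes (log2 difference 1.09, adjusted p = 0.186). Itgam, an integrin gene, lay low in both, at 5.76 and 4.76 in SatM and 4.28 and 5.59 in inflammatory monocytes. Of the genes that define the SatM sort, Ceacam1, an adhesion molecule of the carcinoembryonic antigen family, measured 11.93 and 11.93 in SatM, against 10.38 and 10.34 in inflammatory monocytes. Its difference of 1.57 did not pass the test (adjusted p = 0.0771). The 8 probe sets of Ceacam1 differed by 1.57 to 2.56, and 3 of them were called higher when each set was tested by itself. Their mean, 2.21, passed the test (adjusted p = 0.00856). Msr1, the class A scavenger receptor, measured 7.45 and 6.47 in SatM, against 10.76 and 10.94 in inflammatory monocytes. Its mRNA was lower on both SatM arrays, with a log2 difference of -3.89 ± 0.48 (SE, adjusted p = 0.000186), although SatM are sorted as Msr1-positive cells. Ly6c1 and Ly6c2 are not analysed here.

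Genes known from nonclassical and classical monocytes divided by cell type. Of 15 nonclassical genes 11 were higher in SatM and none lower, also at an unadjusted p under 0.05, and the 11 kept their call with each array left out. Of 10 classical genes 6 were lower and none higher, again also at an unadjusted p under 0.05, and the lower count was 3 without SatM replicate 2 or inflammatory monocyte replicate 2. The median difference was 3.63 over the 15 nonclassical and -3.75 over the 10 classical genes, against -0.02 over all genes tested. These lists are known contrasts of the 2 subsets in the mouse and give no independent support. Nr4a1, on which nonclassical monocytes depend, measured 12.01 and 12.05 in SatM, against 8.26 and 8.55 in inflammatory monocytes. Its arrays did not overlap, yet its difference of 3.63 missed the threshold (adjusted p = 0.0723). Cx3cr1, the fractalkine receptor, differed by 0.92 (adjusted p = 0.139). Ccr2, the receptor for marrow exit, measured 11.71 and 11.70 in SatM, against 12.85 and 13.27 in inflammatory monocytes. At the set used here its difference of -1.35 passed the test (adjusted p = 0.0151), but this call did not hold with each array left out. This set had the smallest difference of the 4 probe sets of Ccr2, which reached -3.06. All 4 were called lower when each set was tested by itself on all arrays of the fit.

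**Figure D2:**
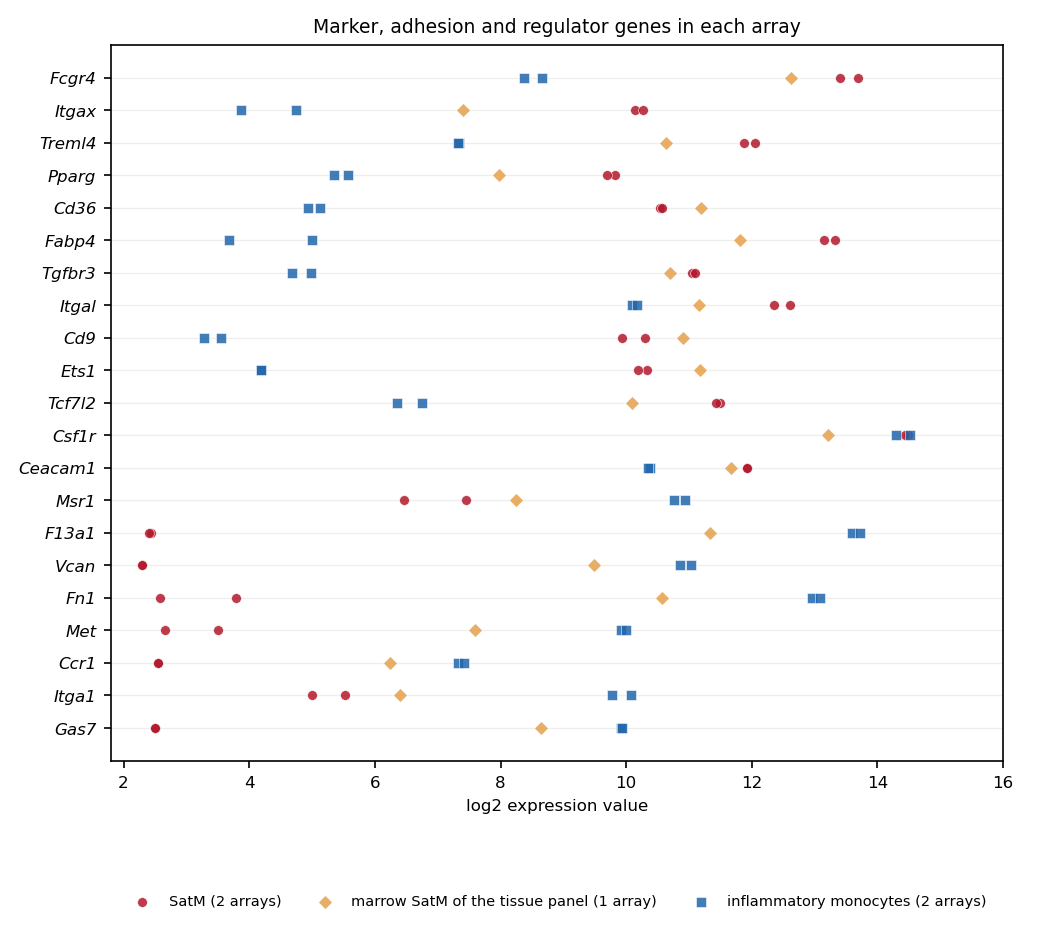
Log2 expression value (horizontal axis) of marker, adhesion and regulator genes on the 2 SatM arrays (circles), the marrow SatM array of the tissue panel (diamond) and the 2 inflammatory monocyte arrays (squares), each point 1 array. SatM lie right of inflammatory monocytes from Fcgr4 to Tcf7l2 and left of them from Msr1 to Gas7, and the panel array lies between the groups for F13a1, Vcan, Fn1 and Met.

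Among receptors for antibodies and the immunoglobulin-like receptors that set the threshold of myeloid activation, members moved in both directions. Of 11 Fc receptor genes tested, 3 were higher, the marker Fcgr4 among them, and none lower, with 1 lower at an unadjusted p under 0.05. Fcrl1, an Fc receptor-like gene known from B cells, measured 5.38 and 5.56 in SatM and lay at the floor on both inflammatory monocyte arrays, so it was at least 9.02-fold higher in SatM (adjusted p = 1.41e-09). The shared signalling chain Fcer1g, at 13.39 and 13.34 in SatM and 13.21 and 13.28 in inflammatory monocytes, differed by 0.12, and the inhibitory receptor Fcgr2b by 0.59, neither past the test. Fcgrt, the neonatal Fc receptor, was the third higher member (1.96, adjusted p = 0.0412), and its adjusted p was 0.169 without SatM replicate 1, 0.109 without SatM replicate 2, 0.158 without inflammatory monocyte replicate 1 and 0.213 without inflammatory monocyte replicate 2.

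Of 28 immunoglobulin-like regulatory receptor genes, 5 were higher and 5 lower (median difference 0.14). Treml4, a receptor known to mark nonclassical monocytes, measured 12.04 and 11.88 in SatM, against 7.34 and 7.33 in inflammatory monocytes. Both SatM arrays exceeded both others by more than 4 log2 units, with a log2 difference of 4.63 ± 0.52 (SE, adjusted p = 9.12e-05). Trem1, which amplifies inflammatory signals through the adaptor DAP12, measured 8.21 and 7.83 in SatM, against 3.84 and 3.45 in inflammatory monocytes, and spleen neutrophils averaged 10.88. The groups did not overlap (log2 difference 4.38 ± 0.79, adjusted p = 0.00299). Cd300ld, an activating CD300 receptor, measured 11.27 and 11.26 in SatM, against 8.15 and 8.11 in inflammatory monocytes. The 2 arrays of each cell type agreed closely, and the difference was 3.13 ± 0.29 (adjusted p = 1.64e-05). Spleen neutrophils averaged 10.77 for it. Lair1, the inhibitory receptor for collagen, measured 11.15 and 11.17 in SatM, against 8.34 and 8.67 in inflammatory monocytes. It was 6.28-fold higher in SatM (log2 difference 2.65 ± 0.24, adjusted p = 1.48e-05).

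The receptors that were lower in SatM included inhibitory ones. Cd200r1, the receptor for CD200, measured 2.30 and 2.66 in SatM, against 5.49 and 5.56 in inflammatory monocytes. SatM lay at or near the floor, with a log2 difference of -3.05 ± 0.38 (adjusted p = 0.00023). Cd33, a receptor for sialic acid, was lower in SatM, with a log2 difference of -3.08 ± 0.42 (adjusted p = 0.000455), as was Treml2, at -3.51 ± 0.30 (adjusted p = 6.99e-06), both without overlap. Cd300lg was lower in SatM, with a log2 difference of -2.15 ± 0.33 (adjusted p = 0.00111). Siglec1, the sialic acid receptor of tissue macrophages, lay at the floor on both SatM arrays and measured 3.72 and 3.74 in inflammatory monocytes, at least 2.7-fold lower in SatM (adjusted p = 9.46e-08). Sirpa, the receptor for CD47, and Tyrobp, which encodes DAP12, lay far above the floor in both and differed by 0.48 and -0.25, neither past the test.

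Among C-type lectin receptor genes 26.09% were called lower and 4.348% higher, against 6.47% and 2.87% of all genes tested. Of 23 tested, 6 were lower and 1 higher, and the higher call (Clec4n, adjusted p = 0.0208) was at 0.136 without SatM replicate 2, 0.132 without inflammatory monocyte replicate 1 and 0.096 without inflammatory monocyte replicate 2. Clec5a, which signals through DAP12, lay at the floor on both SatM arrays and measured 7.37 and 7.40 in inflammatory monocytes. It was at least 34-fold lower (adjusted p = 0.000116). Clec4a2, an inhibitory lectin of dendritic cells and monocytes, measured 5.89 and 7.10 in SatM, against 10.37 and 10.74 in inflammatory monocytes. The SatM arrays differed from each other by over 1 log2 unit and both lay below the others (log2 difference -4.06 ± 0.56, adjusted p = 0.000445). Clec10a, the macrophage galactose lectin, was lower in SatM, with a log2 difference of -3.03 ± 0.46 (adjusted p = 0.000961), as was Cd93, a lectin-like receptor of progenitors and monocytes, at -3.08 ± 0.34 (adjusted p = 7.95e-05). Clec4a3, at 13.48 and 13.48 in SatM and 12.97 and 13.01 in inflammatory monocytes, did not pass the test (adjusted p = 0.934). Of 32 pattern recognition genes 3 were lower (9.375%, against 6.47% of all genes tested), and not all of these calls held with each array left out. Among them was Ddx58, the RNA sensor RIG-I, at 6.01 and 6.11 in SatM, against 7.93 and 8.07 in inflammatory monocytes. Its log2 difference was -1.94 ± 0.32 (adjusted p = 0.0017).

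Receptors that steer movement differed by a few strong members. Cxcr4, the receptor that holds leukocytes in the marrow, measured 13.69 and 13.65 in SatM, against 12.11 and 12.19 in inflammatory monocytes. Both cell types lay far above the floor, and SatM exceeded inflammatory monocytes, with a log2 difference of 1.52 ± 0.16 (SE, adjusted p = 5.32e-05). S1pr5, a sphingosine-1-phosphate receptor known for the exit of NK cells and patrolling monocytes from marrow, measured 11.63 and 11.84 in SatM, against 7.59 and 7.46 in inflammatory monocytes. The level was 18.5-fold higher in SatM, with a log2 difference of 4.21 ± 0.53 (adjusted p = 0.000233). The cMoP and SMP arrays (here and below with those titled WT included in these means) and the neutrophil, eosinophil and basophil arrays averaged between 2.30 and 2.88 for it.
Ccr1, a receptor for inflammatory chemokines, measured 2.55 and 2.55 in SatM, against 7.32 and 7.42 in inflammatory monocytes. It was near the floor in SatM (log2 difference -4.83 ± 0.54, adjusted p = 8.57e-05). Aplnr, the apelin receptor, lay at the floor on both SatM arrays and measured 9.01 and 9.43 in inflammatory monocytes, at least 121-fold lower in SatM (adjusted p = 9.12e-05). Cysltr1, a receptor for cysteinyl leukotrienes, was likewise at the floor in SatM and at 6.46 and 6.36 in inflammatory monocytes, at least 17.3-fold lower (adjusted p = 1.22e-07). Of 11 chemokine receptors tested 1 was higher and 3 were lower, the lower count being 1 without either SatM array or inflammatory monocyte replicate 2. Of 27 chemoattractant and lipid mediator receptors 2 were higher (1 without either SatM array or inflammatory monocyte replicate 2) and 5 lower (2 without SatM replicate 2 or inflammatory monocyte replicate 2). C5ar1, the complement C5a receptor, measured 12.93 and 12.81 in SatM and 11.28 and 10.996 in inflammatory monocytes and did not pass the test (adjusted p = 0.115).

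Of 49 cytokine and growth factor receptor genes tested, 3 were higher (6.1%) and 5 lower (10.2%), against 2.87% and 6.47% of all genes tested. Not all of these calls held with each array left out. Tgfbr3, the betaglycan co-receptor that presents TGF-beta, measured 11.05 and 11.10 in SatM, against 4.68 and 4.99 in inflammatory monocytes. Both arrays of each group agreed closely, and the level was 75.6-fold higher in SatM (log2 difference 6.24 ± 0.46, adjusted p = 1.78e-06). Il31ra, the receptor chain for interleukin-31, measured 8.85 and 9.37 in SatM, against 2.30 and 3.06 in inflammatory monocytes. It was near the floor in inflammatory monocytes, with a log2 difference of 6.43 ± 0.46 (adjusted p = 1.32e-06). Met, the receptor for hepatocyte growth factor, went the other way at 2.66 and 3.50 in SatM, against 9.92 and 10.002 in inflammatory monocytes. It was at least 118-fold lower in SatM, where 1 array lay near the floor (log2 difference -6.88 ± 0.78, adjusted p = 8.94e-05). Csf2rb2, the interleukin-3 receptor beta chain of the mouse, was lower in SatM, with a log2 difference of -2.82 ± 0.44 (adjusted p = 0.00115), as was Flt3, the growth factor receptor of progenitors and dendritic cells, at -2.73 ± 0.43 (adjusted p = 0.00134). Csf2ra, of the GM-CSF receptor, differed by -0.05 (adjusted p = 1).

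Genes of antigen presentation and co-stimulation were called in both directions. Of those tested, 14.29% were higher and 8.571% lower, against 2.87% and 6.47% of all genes tested. The median difference was -0.02, and the called genes named below are all among the higher ones. Of 35 antigen presentation and co-stimulation genes 5 were higher (3 with any 1 of the 4 arrays left out) and 3 lower (0 without SatM replicate 1 or inflammatory monocyte replicate 2 and 1 without inflammatory monocyte replicate 1). Cd274, which encodes the inhibitory ligand PD-L1, measured 12.11 and 12.02 in SatM, against 7.17 and 7.64 in inflammatory monocytes. It was 25.3-fold higher in SatM, with a log2 difference of 4.66 ± 0.53 (SE, adjusted p = 8.87e-05). Pdcd1lg2, which encodes PD-L2, measured 7.40 and 7.61 in SatM, against 2.87 and 2.87 in inflammatory monocytes. Its groups did not overlap (log2 difference 4.63 ± 0.81, adjusted p = 0.00259). Slamf9, a receptor of the SLAM family, measured 9.87 and 9.73 in SatM, against 3.08 and 4.59 in inflammatory monocytes. The inflammatory monocyte arrays differed from each other by far less than the log2 difference between the groups, 5.96 ± 0.43 (adjusted p = 1.35e-06). Cd83, a surface protein of mature antigen-presenting cells, measured 12.45 and 12.67 in SatM, against 6.97 and 7.14 in inflammatory monocytes. Its difference of 5.50 passed the test (adjusted p = 0.0218), but the adjusted p was 0.0788 without SatM replicate 1, 0.102 without SatM replicate 2, 0.125 without inflammatory monocyte replicate 1 and 0.113 without inflammatory monocyte replicate 2. B2m, the light chain of MHC class I, did not pass (0.28, adjusted p = 0.725).

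Adhesion genes changed in both directions, by chain. Of 20 integrin genes tested 3 were higher and 4 lower (the lower count was 2 without inflammatory monocyte replicate 1). Besides Itgax, the 2 higher chains were Itgal and Itgb1. Itgal, the alpha chain of LFA-1 that binds ICAM-1 on vessel walls, measured 12.35 and 12.60 in SatM, against 10.09 and 10.17 in inflammatory monocytes. It was 5.06-fold higher in SatM (log2 difference 2.34 ± 0.26, adjusted p = 7.52e-05), while its partner chain Itgb2 differed by 0.71 (adjusted p = 0.225). Itgb1, the shared beta chain of many matrix-binding integrins, measured 10.77 and 10.86 in SatM, against 8.89 and 9.02 in inflammatory monocytes. The arrays did not overlap, and the difference was 1.86 ± 0.24 (adjusted p = 0.000254). Itga1, a collagen-binding chain that pairs with it, measured 4.99 and 5.53 in SatM, against 10.07 and 9.77 in inflammatory monocytes. It was 25.3-fold lower in SatM (log2 difference -4.66 ± 0.41, adjusted p = 9.03e-06). Itga6, a laminin-binding chain, was lower in SatM, with a log2 difference of -3.28 ± 0.29 (adjusted p = 9.45e-06). The alpha chains Itga4 and Itgav, well above the floor in both, differed by 0.31 and 0.58 without passing the test. Of 5 probe sets of Itgav, 2 were called higher by themselves, and the mean of its sets passed the test (1.47, adjusted p = 0.00321).

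Of 34 selectin ligand and immunoglobulin-type adhesion genes 4 were higher and 3 lower (lower count 1 without SatM replicate 1). Spn, the sialomucin CD43, measured 12.48 and 12.45 in SatM, against 9.79 and 9.54 in inflammatory monocytes. It was 6.95-fold higher in SatM (log2 difference 2.80 ± 0.24, adjusted p = 7.92e-06). L1cam, an adhesion molecule first known from neurons, measured 10.69 and 10.74 in SatM, against 7.63 and 7.58 in inflammatory monocytes. Its arrays agreed closely in each group, and the difference was 3.11 ± 0.39 (adjusted p = 0.000211). St3gal6, a sialyltransferase that helps build selectin ligands, was higher in SatM, with a log2 difference of 2.38 ± 0.34 (adjusted p = 0.000665), with a mean of 10.05 in spleen neutrophils. Emb, the adhesion protein embigin, measured 10.15 and 10.03 in SatM, against 12.13 and 12.01 in inflammatory monocytes. It was lower in SatM, with a log2 difference of -1.98 ± 0.22 (adjusted p = 6.54e-05).

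Tetraspanins organise integrins and receptors in the membrane. Of 19 tested, 4 were higher and 1 lower (lower count 0 without SatM replicate 2 or either inflammatory monocyte array). Cd9 measured 9.93 and 10.30 in SatM, against 3.28 and 3.55 in inflammatory monocytes. It was 104-fold higher in SatM (log2 difference 6.70 ± 0.44, adjusted p = 5.94e-07), and spleen neutrophils averaged 10.09 and eosinophils 7.10. Cd81 measured 10.75 and 11.10 in SatM, against 6.94 and 6.92 in inflammatory monocytes. The difference was 3.99 ± 0.32 (adjusted p = 4.72e-06), and spleen eosinophils averaged 11.001. Cd82 was higher in SatM, with a log2 difference of 2.81 ± 0.37 (adjusted p = 0.000298). Cd53, far above the floor in both, differed by 0.02 (adjusted p = 1).

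Of 55 genes of integrin signalling and the cytoskeleton, 7 were higher (4 without either inflammatory monocyte array) and 3 lower, with a median difference of 0.26. Ptk2b, the focal adhesion kinase Pyk2, measured 12.18 and 11.76 in SatM, against 9.97 and 10.0003 in inflammatory monocytes. Its difference was 1.98 ± 0.27 (adjusted p = 0.000385). Rap1gap2, which switches off the integrin-activating GTPase Rap1, measured 12.50 and 12.10 in SatM, against 10.43 and 10.41 in inflammatory monocytes. SatM were higher, with a log2 difference of 1.89 ± 0.27 (adjusted p = 0.000664). Rasgrp1, an exchange factor that activates Ras, measured 9.75 and 9.51 in SatM, against 5.55 and 5.67 in inflammatory monocytes. It was 16.3-fold higher (log2 difference 4.02 ± 0.56, adjusted p = 0.00048). Myo1g, a membrane-linked myosin of blood cells, was higher in SatM, with a log2 difference of 1.54 ± 0.29 (adjusted p = 0.00461). Gas7, a membrane-bending actin protein, measured 2.49 and 2.49 in SatM, against 9.92 and 9.93 in inflammatory monocytes. With SatM near the floor, it was at least 173-fold lower (log2 difference -7.43 ± 1.07, adjusted p = 0.000632), and the marrow SatM array of the panel measured 8.64. Parvb, which links integrins to actin, was lower in SatM, with a log2 difference of -2.88 ± 0.39 (adjusted p = 0.000383), as was Plxnd1, a semaphorin receptor, at -3.51 ± 0.49 (adjusted p = 0.000481).

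Matrix, coagulation and protease genes held the largest falls, those of the markers F13a1 and Vcan among them. Of 35 tested, 10 were lower and 3 higher (median difference -0.27), and 8 of the lower and all 3 higher calls held with each array left out. Fn1, the matrix protein fibronectin, measured 3.79 and 2.58 in SatM, against 12.96 and 13.08 in inflammatory monocytes. It was at least 913-fold lower in SatM, where 1 array lay near the floor, with a log2 difference of -9.83 ± 0.64 (SE, adjusted p = 5.87e-07). Thbs1, thrombospondin 1, measured 3.39 and 2.30 in SatM, against 8.19 and 8.57 in inflammatory monocytes. Its SatM arrays differed by about 1 and lay below both others (log2 difference -5.54 ± 1.06, adjusted p = 0.00487). F5, coagulation factor V, measured 5.36 and 6.56 in SatM, against 10.46 and 10.61 in inflammatory monocytes. The difference was -4.57 ± 0.57 (adjusted p = 0.000222). Adam19, a membrane metalloprotease, measured 2.32 and 2.30 in SatM, against 8.11 and 8.20 in inflammatory monocytes. It lay at or near the floor in SatM, with a log2 difference of -5.85 ± 0.36 (adjusted p = 3.49e-07).
The 3 higher genes were a matrix protease, an ADAM-like protease and a collagen cross-linker. Mmp9, gelatinase B, measured 7.91 and 7.98 in SatM, against 2.76 and 3.005 in inflammatory monocytes. It was higher in SatM, with a log2 difference of 5.06 ± 0.86 (adjusted p = 0.00209), and spleen neutrophils averaged 14.06 and eosinophils 10.48. Adamdec1 measured 7.18 and 5.52 in SatM and was at the floor in inflammatory monocytes, at least 16.6-fold higher (adjusted p = 2.28e-05). Spleen eosinophils averaged 8.02 for it. Loxl3, a lysyl oxidase that cross-links collagen, measured 3.52 and 4.42 in SatM, against 2.30 and 2.30 in inflammatory monocytes. With inflammatory monocytes at the floor, the log2 difference of 1.67 ± 0.20 (adjusted p = 0.000118) is a lower bound.

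**Figure D3:**
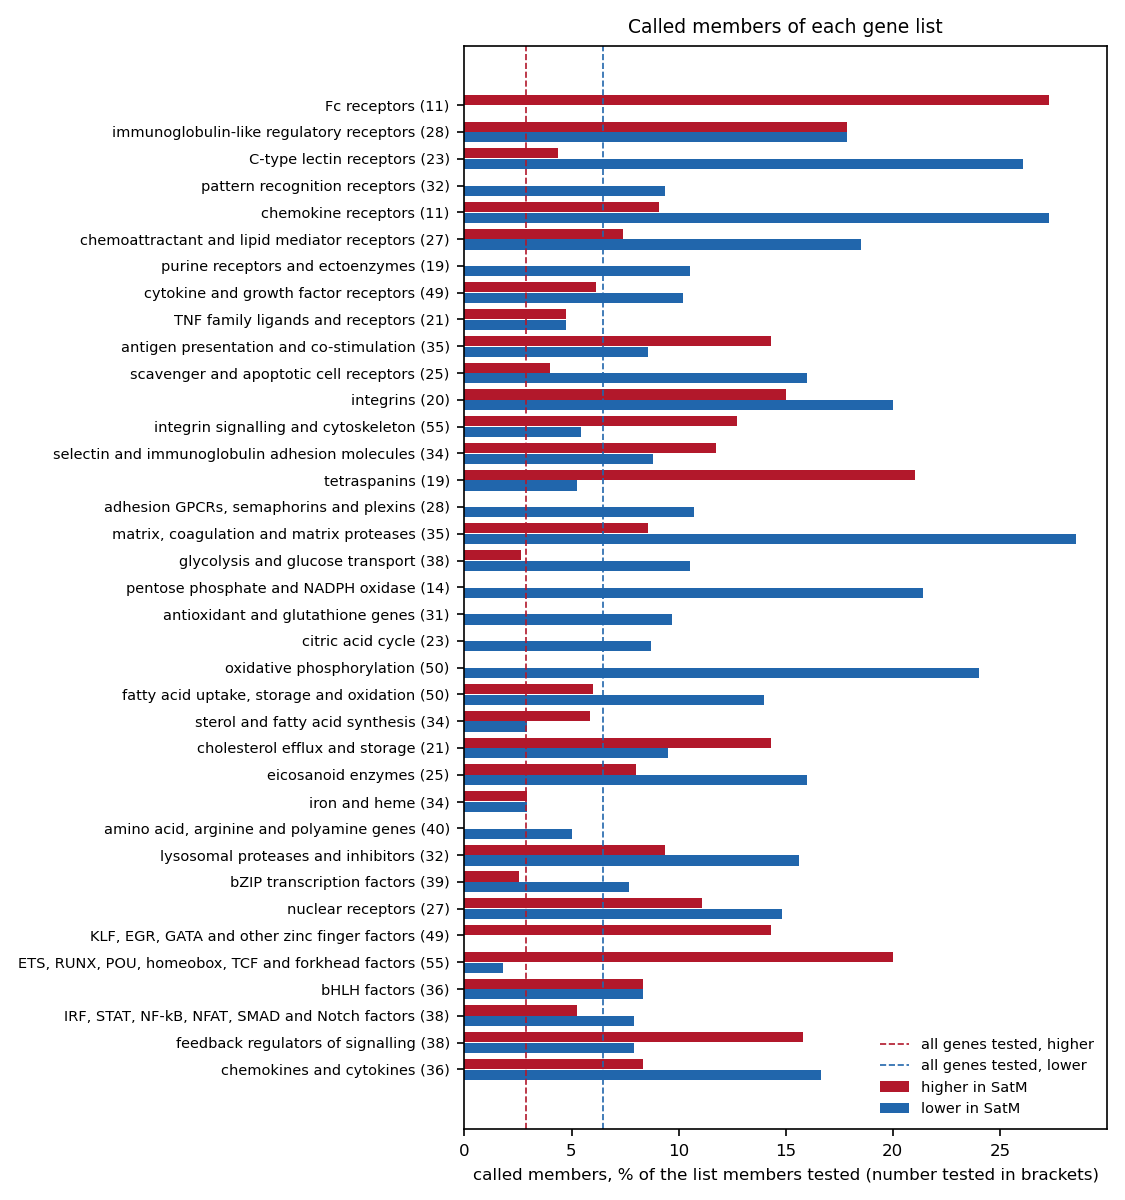
Share of the tested members of each gene list (horizontal axis, %) that were called higher or lower in SatM, with the number tested in brackets. The dashed lines give the shares over all genes tested, 2.87% higher and 6.47% lower. Matrix genes (28.57% of 35 lower) and ETS, RUNX, POU, homeobox, TCF and forkhead factors (20% of 55 higher) stand far from these lines. The matrix list holds the markers F13a1 and Vcan, and the lists were chosen with earlier results of these data known. These distances therefore give no independent support.

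Lipid metabolism genes were called in both directions. Cd36, which takes up fatty acids and oxidised lipoproteins, measured 10.53 and 10.56 in SatM, against 4.93 and 5.12 in inflammatory monocytes. It was 46-fold higher in SatM (log2 difference 5.52 ± 0.55, adjusted p = 2.75e-05). Pparg, the nuclear receptor that drives lipid storage, measured 9.81 and 9.69 in SatM, against 5.58 and 5.36 in inflammatory monocytes. The difference was 4.28 ± 0.25 (adjusted p = 2.03e-07), and cMoP, SMP and the 3 spleen granulocyte types averaged between 2.61 and 2.77. Fabp4, a fatty acid carrier known as a Pparg target, measured 13.16 and 13.33 in SatM, against 3.68 and 4.995 in inflammatory monocytes. It had the second largest rise, a log2 difference of 8.91 ± 1.86 (SE, adjusted p = 0.00859), but its inflammatory monocyte arrays differed by more than 1 and its adjusted p was 0.0505 without SatM replicate 2 and 0.0814 without inflammatory monocyte replicate 1. Scd1, which desaturates stearate, measured 7.44 and 6.80 in SatM and was at the floor in inflammatory monocytes, at least 28.3-fold higher (adjusted p = 7.24e-07). Acss1, a mitochondrial acetyl-CoA synthetase, was higher in SatM, with a log2 difference of 2.17 ± 0.35 (adjusted p = 0.00152).
Of 50 genes of fatty acid uptake, storage and oxidation, 3 were higher (6%) and 7 lower (14%), against 2.87% and 6.47% of all genes tested. Most of the lower calls were lost in at least 1 fit that leaves out an array. Hadh, a beta-oxidation enzyme gene among the lower ones, measured 10.46 and 10.93 in SatM, against 12.25 and 12.24 in inflammatory monocytes (log2 difference -1.55 ± 0.41, adjusted p = 0.0299), and its adjusted p was 0.164 without SatM replicate 1, 0.0622 without SatM replicate 2, 0.147 without inflammatory monocyte replicate 1 and 0.145 without inflammatory monocyte replicate 2. Fabp7, another fatty acid carrier, measured 3.15 and 2.30 in SatM, against 5.92 and 5.35 in inflammatory monocytes. It was lower in SatM, with a log2 difference of -2.91 ± 0.22 (adjusted p = 2.59e-06). Plin2, which coats lipid droplets, differed by -0.05 (adjusted p = 1). Of 34 sterol and fatty acid synthesis genes 2 were higher (Scd1 and Acss1) and 1 lower, Mvd, whose adjusted p of 0.0456 was 0.281 without SatM replicate 2, 0.198 without inflammatory monocyte replicate 1 and 0.194 without inflammatory monocyte replicate 2. Npc2, the lysosomal cholesterol carrier, measured 11.72 and 11.44 in SatM, against 13.26 and 13.62 in inflammatory monocytes. It was lower in SatM, with a log2 difference of -1.86 ± 0.29 (adjusted p = 0.0012).

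The called genes of oxidative phosphorylation were lower in SatM (24% of 50, against 6.47% of all genes tested). None of these calls held in all 4 fits that leave out an array. None of 50 oxidative phosphorylation genes was higher, also at an unadjusted p under 0.05, and 12 were lower, with a median difference of -0.83 against -0.02 over all genes tested. The count of 12 was 6 without SatM replicate 1, 0 without SatM replicate 2, 0 without inflammatory monocyte replicate 1 and 1 without replicate 2, and it was 0 without the term for the WT-titled arrays. Ndufa1, a subunit of complex I, measured 9.09 and 8.71 in SatM, against 10.77 and 10.68 in inflammatory monocytes. Both SatM arrays lay below both others (log2 difference -1.83 ± 0.40, adjusted p = 0.0113), and the adjusted p was 0.0855 without SatM replicate 2, 0.0834 without inflammatory monocyte replicate 1 and 0.0688 without inflammatory monocyte replicate 2. Uqcrc2, a core subunit of complex III, measured 11.27 and 10.89 in SatM, against 12.56 and 12.66 in inflammatory monocytes. Its difference was -1.53 ± 0.35 (adjusted p = 0.0149), and the adjusted p was 0.11 without SatM replicate 2, 0.082 without inflammatory monocyte replicate 1 and 0.103 without inflammatory monocyte replicate 2. Cox5b, of complex IV, at 12.65 and 12.54 in SatM and 13.46 and 13.21 in inflammatory monocytes, did not pass the test (adjusted p = 0.408). Of 23 citric acid cycle genes 2 were lower (8.696%) and none higher, also at an unadjusted p under 0.05, with a median of -0.56. These shares lie near those over all genes tested, 6.47% lower and 2.87% higher. Neither of the lower calls held in all fits that leave out an array.

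**Figure D4:**
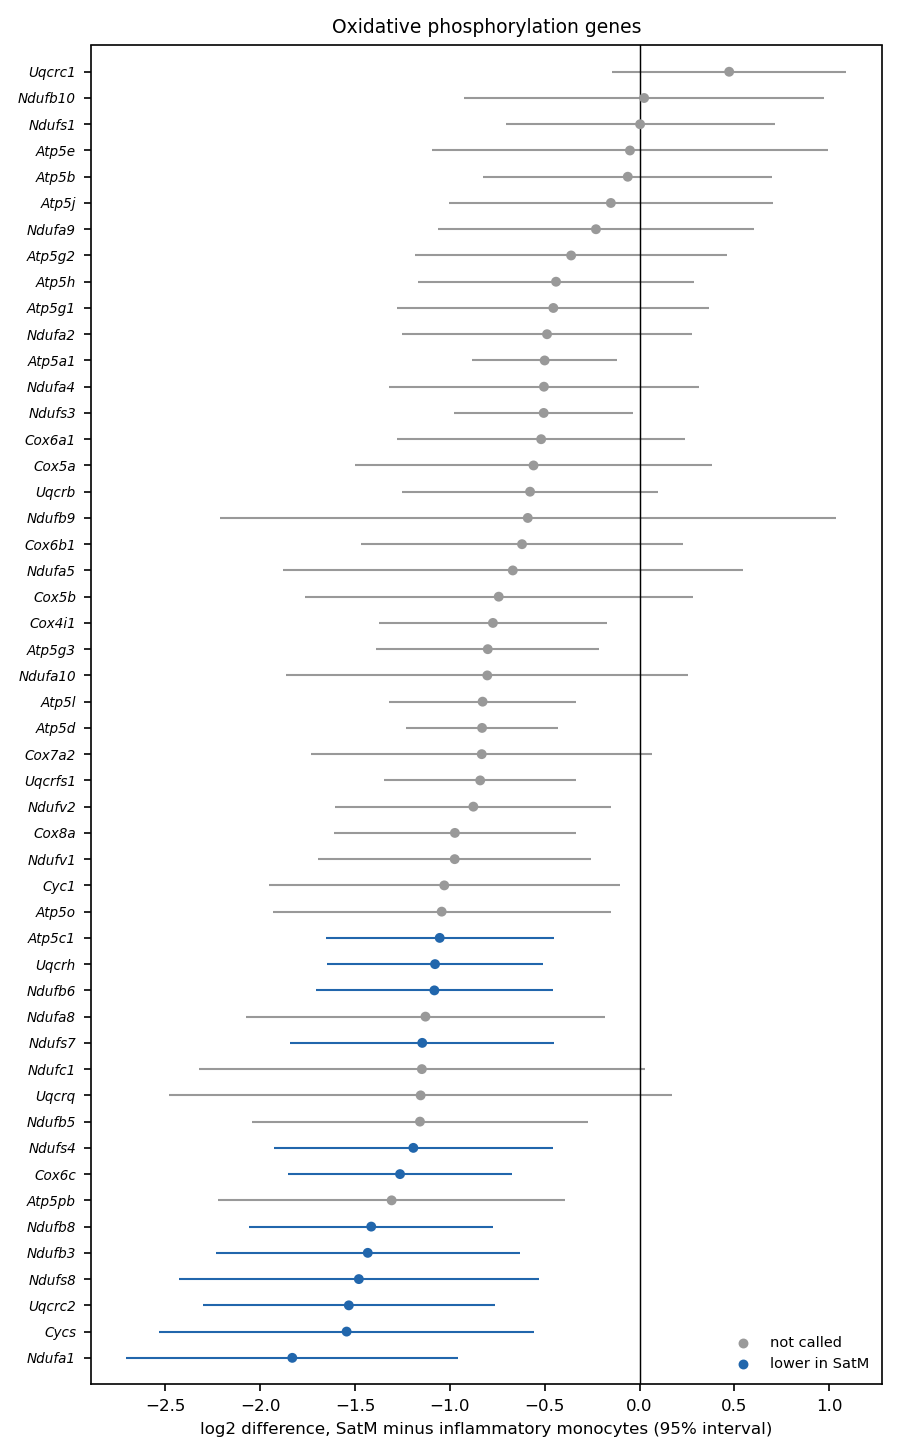
Log2 difference, SatM minus inflammatory monocytes (horizontal axis), of the 50 oxidative phosphorylation genes with 95% intervals from the fit, ordered by size. The 12 called genes are all lower in SatM, and all but 3 of the 50 points lie below 0.

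In glycolysis the 2 largest differences were those of the isoform genes Eno3 and Ldhb. Eno3, the enolase isoform of muscle, measured 12.57 and 12.61 in SatM, against 7.71 and 7.67 in inflammatory monocytes. It was 29.9-fold higher in SatM (log2 difference 4.90 ± 0.45, adjusted p = 1.44e-05). Ldhb, the lactate dehydrogenase subunit of heart, measured 5.76 and 4.68 in SatM, against 10.40 and 10.42 in inflammatory monocytes. It was 36.6-fold lower (log2 difference -5.19 ± 0.78, adjusted p = 0.000898). The enzymes Aldoa, Pgk1 and Pkm differed by -0.68, -0.47 and -0.23 without passing the test, although 1 of 3 probe sets of Pgk1 was called lower by itself. Over 38 glycolysis and glucose transport genes 1 was higher and 4 were lower, the lower count being 2 without SatM replicate 1 and 1 without inflammatory monocyte replicate 2. Of 14 pentose phosphate and NADPH oxidase genes 3 were lower (1 without SatM replicate 2 or either inflammatory monocyte array). Hvcn1, the proton channel that supports the oxidase, measured 2.99 and 3.58 in SatM, against 5.50 and 5.50 in inflammatory monocytes, a difference of -2.21 ± 0.26 (adjusted p = 0.000148). Cybb, the catalytic oxidase subunit, differed by 0.52 (adjusted p = 0.88).

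Among eicosanoid genes 4 of 25 were lower (2 with any 1 of the 4 arrays left out) and 2 higher (1 without SatM replicate 1 or either inflammatory monocyte array). Tbxas1, thromboxane synthase, measured 4.34 and 4.07 in SatM, against 7.78 and 8.06 in inflammatory monocytes. It was 13.1-fold lower in SatM (log2 difference -3.71 ± 0.30, adjusted p = 4.1e-06). Ptgr1, which inactivates leukotriene B4 and prostaglandins, was lower in SatM, with a log2 difference of -3.33 ± 0.58 (adjusted p = 0.00253). Dpep3, a membrane dipeptidase gene, measured 5.95 and 6.38 in SatM, against 2.30 and 2.32 in inflammatory monocytes. SatM were higher, with a log2 difference of 3.86 ± 0.17 (adjusted p = 1.55e-08). Kmo, which turns kynurenine into hydroxykynurenine, measured 2.37 and 2.37 in SatM, against 5.65 and 6.20 in inflammatory monocytes. It was near the floor in SatM (log2 difference -3.55 ± 0.55, adjusted p = 0.00103). Of 32 lysosomal protease and inhibitor genes 3 were higher and 5 lower (lower count 2 without SatM replicate 1 and 1 without SatM replicate 2 or either inflammatory monocyte array). The 5 lower genes, Ctsc, Cstb, Glb1, Gla and Grn, differed by -1.03 to -2.70, and none kept its call with each array left out in turn. Lgmn, the protease legumain, was higher at 1.37 ± 0.31 (adjusted p = 0.0135), and its adjusted p was 0.0688 without SatM replicate 1, 0.0649 without inflammatory monocyte replicate 1 and 0.0987 without inflammatory monocyte replicate 2. Acp5, the tartrate-resistant acid phosphatase of osteoclasts and macrophages, measured 7.33 and 7.55 in SatM, against 3.55 and 3.35 in inflammatory monocytes, with a difference of 3.99 ± 0.69 (adjusted p = 0.00227). Ctsk, the collagen-cutting cathepsin K, measured 5.67 and 3.88 in SatM, against 2.36 and 2.30 in inflammatory monocytes. Its SatM arrays differed by more than 1 and both exceeded the others (log2 difference 2.45 ± 0.37, adjusted p = 0.000932). The lysozyme genes Lyz1 and Lyz2 and the cathepsin gene Ctss differed by -0.16, -0.02 and -0.13, none past the test, although 1 of 3 probe sets of Lyz1 was called lower by itself.

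Transcription factor genes were called higher in SatM more often than lower in 2 families. Of 55 ETS, RUNX, POU, homeobox, TCF and forkhead genes 11 were higher and 1 lower, and 9 of the higher calls held with each array left out. The median over the 55 was 0.09, and 18 were higher and 4 lower at an unadjusted p under 0.05. Ets1, a factor known from lymphocytes and NK cells, measured 10.32 and 10.20 in SatM, against 4.19 and 4.19 in inflammatory monocytes. It was 67.2-fold higher in SatM (log2 difference 6.07 ± 0.47, adjusted p = 2.9e-06), and spleen neutrophils averaged 11.92 and eosinophils 10.84. Ets2 measured 12.66 and 12.46 in SatM, against 9.26 and 9.32 in inflammatory monocytes, with a difference of 3.27 ± 0.47 (adjusted p = 0.000677). Tcf7l2, which carries Wnt signals to genes with beta-catenin, measured 11.49 and 11.42 in SatM, against 6.35 and 6.75 in inflammatory monocytes. The difference was 4.91 ± 0.69 (adjusted p = 0.000521), and SMP, neutrophil, eosinophil and basophil means lay between 2.70 and 6.46.
Pou2f2, the Oct-2 factor of B cells and nonclassical monocytes, measured 10.40 and 10.69 in SatM, against 8.02 and 8.02 in inflammatory monocytes. It was higher in SatM, with a log2 difference of 2.53 ± 0.45 (adjusted p = 0.00261). Pou6f1 measured 6.95 and 6.28 in SatM and was at the floor in inflammatory monocytes, at least 19.9-fold higher (adjusted p = 0.000389). Spic, the ETS factor of red pulp macrophages, measured 7.49 and 6.96 in SatM, against 2.59 and 3.87 in inflammatory monocytes. The inflammatory monocyte arrays differed by more than 1, and the log2 difference was 3.99 ± 0.64 (adjusted p = 0.00143). Runx3 was the 1 lower member, with a log2 difference of -2.19 ± 0.47 (adjusted p = 0.01), and its adjusted p was 0.0814 without SatM replicate 1, 0.0649 without inflammatory monocyte replicate 1 and 0.0756 without inflammatory monocyte replicate 2.

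Of 49 KLF, EGR, GATA and other zinc finger genes 7 were higher (4 without SatM replicate 2 and 2 without inflammatory monocyte replicate 1) and none lower (1 at an unadjusted p under 0.05), with a median of 0.29. Ikzf3, the Ikaros family factor Aiolos, measured 11.11 and 11.45 in SatM, against 4.85 and 4.65 in inflammatory monocytes. It was 92.5-fold higher in SatM (log2 difference 6.53 ± 0.28, adjusted p = 1.1e-08), and spleen eosinophils averaged 10.01. Klf2, a factor of leukocyte quiescence and trafficking, measured 9.92 and 10.39 in SatM, against 7.98 and 8.15 in inflammatory monocytes. SatM were higher, with a log2 difference of 2.09 ± 0.36 (adjusted p = 0.00219). Klf6 and Bcl6 differed by 0.88 and 1.21, neither past the test (adjusted p = 0.0998 and 0.0853). The mean of their probe sets passed for both, at 1.28 (adjusted p = 0.0333) for Klf6 and 1.93 (adjusted p = 0.00516) for Bcl6.

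Among bHLH factors 3 of 36 were higher and 3 lower (8.333% each, against 2.87% higher and 6.47% lower of all genes tested). Bhlhe40, a repressor induced by activation, measured 10.76 and 10.13 in SatM, against 6.59 and 6.65 in inflammatory monocytes. It was 14.2-fold higher (log2 difference 3.83 ± 0.58, adjusted p = 0.000937), and spleen eosinophils averaged 10.76. Hes1, a repressor induced by Notch, measured 4.64 and 5.75 in SatM, against 2.82 and 2.82 in inflammatory monocytes. It was higher in SatM, with a log2 difference of 2.38 ± 0.29 (adjusted p = 0.000171), while the receptor gene Notch1 measured 7.66 and 8.27 in SatM, against 10.36 and 9.85 in inflammatory monocytes, with a difference of -2.14 ± 0.29 (adjusted p = 0.000358). Rbpj, the DNA-binding partner of Notch receptors, was lower in SatM, with a log2 difference of -1.15 ± 0.17 (adjusted p = 0.00084), and Notch2 differed by 0.38 (adjusted p = 0.334). Nrarp, a feedback inhibitor induced by Notch, measured 8.66 and 8.85 in SatM, against 2.57 and 2.57 in inflammatory monocytes. The difference was 6.18 ± 1.03 (adjusted p = 0.00178), with a mean of 7.91 in spleen eosinophils.
Ahr, the receptor for aryl hydrocarbons and tryptophan products, measured 4.34 and 5.28 in SatM, against 8.98 and 9.20 in inflammatory monocytes. It was 19.4-fold lower in SatM (log2 difference -4.28 ± 0.45, adjusted p = 4.61e-05). Tfec, a relative of the lysosome factor TFEB, measured 2.30 and 2.51 in SatM, against 6.61 and 6.65 in inflammatory monocytes. It lay at or near the floor in SatM (log2 difference -4.23 ± 0.45, adjusted p = 5.49e-05). Batf3, a factor of dendritic cells, was lower in SatM, with a log2 difference of -3.18 ± 0.52 (adjusted p = 0.00155), as was the orphan receptor gene Nr2f6, at -1.25 ± 0.22 (adjusted p = 0.00271). The nuclear receptor list held 3 higher of 27, with Pparg among them, and 4 lower (2 without SatM replicate 2 or either inflammatory monocyte array). Nr1h3, the oxysterol receptor LXR alpha, measured 5.48 and 3.73 in SatM and was at the floor in inflammatory monocytes, at least 4.96-fold higher. It is among the 3, but it passed the filter on dim genes through the 2 SatM arrays alone, so its p supports nothing and is not given.

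**Figure D5:**
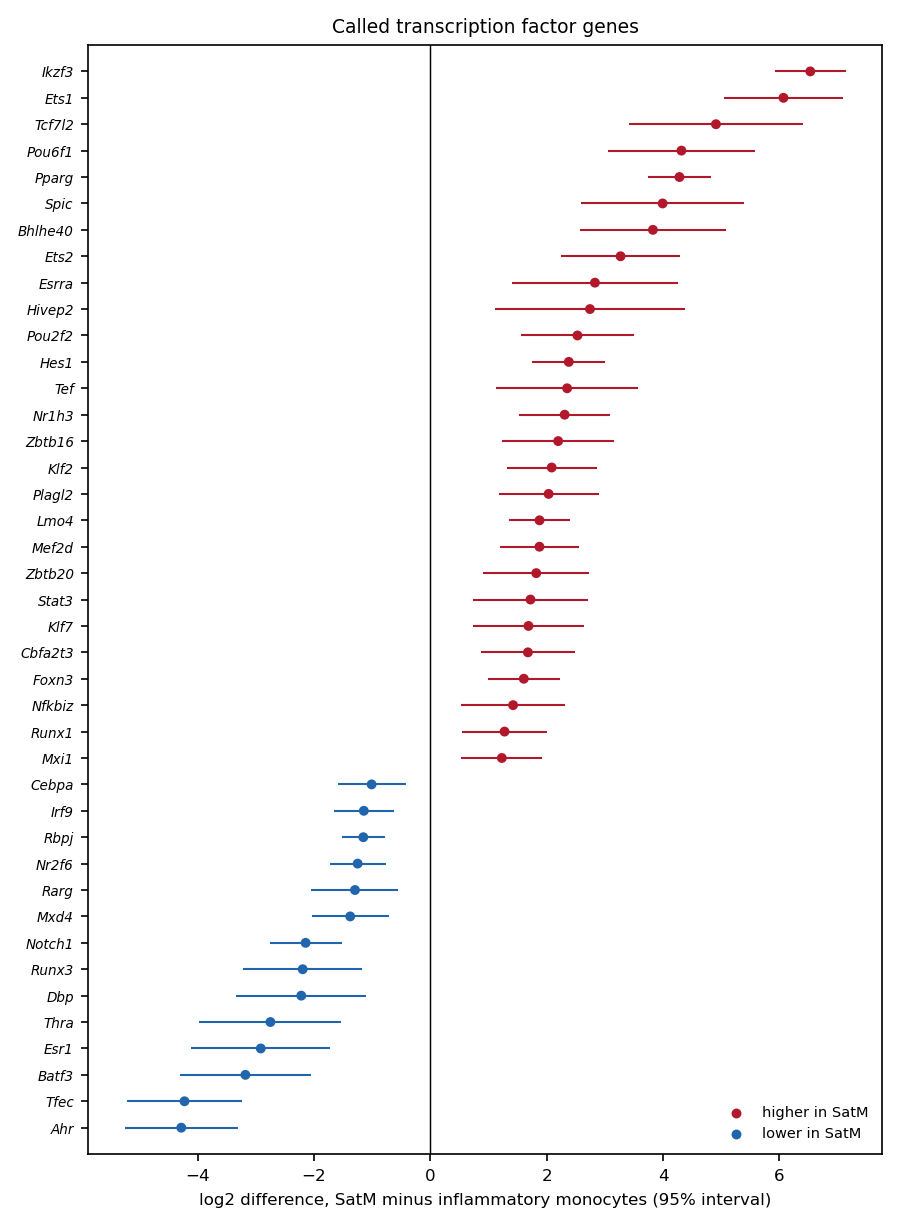
Log2 difference, SatM minus inflammatory monocytes (horizontal axis), of the transcription factor genes called in the 6 factor lists, with 95% intervals from the fit, ordered by size. The largest are Ikzf3, Ets1 and Tcf7l2, which are higher in SatM, and Ahr and Tfec lie at the other end.

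Feedback regulators of signalling were called in both directions, 6 of 38 higher and 3 lower, and 5 of the higher and all 3 lower calls held with each array left out. Dusp5, a nuclear phosphatase that switches off ERK, measured 12.89 and 12.76 in SatM, against 7.08 and 6.92 in inflammatory monocytes. It was 56.8-fold higher in SatM (log2 difference 5.83 ± 0.91, adjusted p = 0.00113). Dusp16, a phosphatase of JNK, measured 11.03 and 11.44 in SatM, against 4.86 and 4.12 in inflammatory monocytes. The difference was 6.74 ± 0.69 (adjusted p = 3.6e-05). Dusp1 and Dusp6 differed by 0.69 and 0.37 without passing the test. Spred2, an inhibitor of the Ras pathway, measured 7.23 and 6.21 in SatM, against 2.87 and 2.99 in inflammatory monocytes, with a difference of 3.79 ± 0.51 (adjusted p = 0.000361). Spry2, another such inhibitor, measured 2.77 and 2.30 in SatM, against 5.60 and 5.84 in inflammatory monocytes, with a difference of -3.19 ± 0.53 (adjusted p = 0.00172). Regulators of G protein signals also split by member. Grk3, a receptor kinase, measured 12.60 and 12.69 in SatM, against 10.40 and 10.58 in inflammatory monocytes. SatM were higher, with a log2 difference of 2.15 ± 0.31 (adjusted p = 0.00063), and Rgs1 was higher too, at 2.90 ± 0.51 (adjusted p = 0.00247). Rgs18, at 7.17 and 6.79 in SatM, against 9.69 and 9.86 in inflammatory monocytes, was lower in SatM, with a log2 difference of -2.80 ± 0.36 (adjusted p = 0.000267). Socs6, of the cytokine signal suppressor family, was lower in SatM, with a log2 difference of -3.91 ± 0.66 (adjusted p = 0.00205), with SatM arrays at 5.98 and 3.27.

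Of 36 chemokine and cytokine genes tested 6 were lower (3 without SatM replicate 1, 1 without SatM replicate 2 and 2 without either inflammatory monocyte array) and 3 higher (0 without SatM replicate 2 and 1 without either inflammatory monocyte array). Ccl2, the ligand of Ccr2, measured 5.37 and 5.25 in SatM, against 8.23 and 8.93 in inflammatory monocytes. It was 9.64-fold lower in SatM (log2 difference -3.27 ± 0.54, adjusted p = 0.00182). Pdgfb, a growth factor for fibroblasts and pericytes, measured 5.59 and 6.10 in SatM and was at the floor in inflammatory monocytes. It was at least 11.7-fold higher, but it passed the filter on dim genes through the 2 SatM arrays alone, so no p is given. Ccl3 and Ccl6 did not pass the test (0.31 and -0.32).

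The remaining largest differences were genes outside the lists. Gjb2, the gap junction protein connexin 26, measured 8.45 and 8.37 in SatM, against 2.42 and 2.31 in inflammatory monocytes. With inflammatory monocytes near the floor, it was at least 66.2-fold higher in SatM (log2 difference 6.05 ± 0.10, adjusted p = 5.94e-13). The cMoP, SMP, neutrophil, eosinophil and basophil arrays averaged at the floor, so this SE and p rest largely on tied arrays. Slc12a2, the sodium, potassium and chloride cotransporter, measured 12.49 and 12.10 in SatM, against 6.33 and 6.58 in inflammatory monocytes. Its difference was 5.84 ± 0.68 (adjusted p = 0.000115). Ms4a8a, of the four-transmembrane Ms4a family, measured 2.61 and 2.30 in SatM, against 10.11 and 10.10 in inflammatory monocytes. With SatM at or near the floor, it was at least 201-fold lower (log2 difference -7.65 ± 0.82, adjusted p = 5.42e-05). Aoah, which removes acyl chains from lipopolysaccharide, measured 3.25 and 3.90 in SatM, against 10.27 and 10.08 in inflammatory monocytes, with a difference of -6.60 ± 0.62 (adjusted p = 1.79e-05). Ndrg1, a stress-induced differentiation gene, measured 6.20 and 3.75 in SatM, against 11.82 and 11.63 in inflammatory monocytes, with a difference of -6.75 ± 0.61 (adjusted p = 1.16e-05) and SatM arrays more than 2 apart. Kcne3, a subunit of potassium channels, measured 2.40 and 2.38 in SatM, against 9.03 and 8.66 in inflammatory monocytes, with a difference of -6.46 ± 0.69 (adjusted p = 5.82e-05).

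The panel's marrow and blood SatM arrays gave values for the same genes outside the comparison. Its spleen and lung lavage SatM arrays are not reported here. In blood SatM, Fcgr4 measured 12.81, Itgax 10.87, Treml4 11.83, Tcf7l2 11.45 and S1pr5 10.99, against marrow values of 12.62, 7.40, 10.63, 10.09 and 8.50. Genes low in SatM also separated the marrow and blood arrays of the panel. Clec5a measured 2.30 in blood and 8.34 in marrow, Met 2.66 and 7.60, and Thbs1 4.94 and 10.18. F13a1 and Fn1 stayed well above the floor in blood SatM, at 8.43 and 9.30. With 1 array each, these values have no spread and no test.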

How the data were processed

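RNA of sorted cells was hybridised to Affymetrix Mouse430_2 arrays, 1 sample per array. The deposited log2 values, 1 per probe set and array, had been brought by the authors to similar distributions, with array medians of 2.31 to 2.39 and upper quartiles of 6.09 to 6.56. That the logarithm has base 2 was taken from the range of 2.30 to 16.02, and the normalisation method is not given in the sources used here. Of 45101 probe sets, 64 controls, 9160 without a gene symbol and 932 with several were left out. Of the 34945 kept, 34741 matched the RefSeq gene table (GRCm38.p6) by Entrez identifier, and symbols of the others are those of the platform annotation. The probe set whose mean over the 35 arrays was highest stood for each of 18193 genes, of which 9010 had several. A single missing value stayed missing.

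The fit held 20 arrays, with a term per cell type and 1 term for the arrays titled WT, which left 10 residual degrees of freedom. Genes were kept where at least 2 of the 20 arrays lay over the median of their array, which left 12077. Tests were limma's moderated tests (limma 3.58.1, R 4.3.3; lmFit, eBayes with trend), adjusted by the Benjamini-Hochberg method over all genes tested. Adjusted p-values in the text come from this fit. The fit was also run on simulated data with independent noise, no floor and the same spread of a gene in all cell types. That run therefore does not bear on ties at the floor or on unequal spread between cell types. Differences are SatM minus inflammatory monocytes, with 95% intervals where drawn. Against a group at the floor the fold is given as at least the plain difference of means.

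The comparison and the 50 gene lists were chosen with earlier results of these data known. Genes eligible for naming were the markers, the 15 largest rises and falls, and per list up to 6 called members in each direction, the 3 members with the highest mean among those not called, and members at the floor in 1 group. The text names a selection of these made after their values were seen. The replicate numbers come from the sample titles. The deviations of arrays with the same number correlated at r = -0.05 across genes, so the numbers were not taken to pair samples. The 16 alternatives were quantile normalisation, no filter, a filter at the 60th percentile instead of the median, the mean of the probe sets of a gene, every probe set by itself, the 4 arrays alone, eBayes without trend or with robust estimation, no fold threshold, a replicate block, no term for WT-titled arrays, the marrow SatM array of the tissue panel added, and each of the 4 arrays left out. Genes whose probe sets carry several symbols are not analysed here. Tables and figures were made with Python 3.11.15, numpy 2.4.6, pandas 2.3.3 and matplotlib 3.10.9.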

Additional observations from a re-analysis of the deposited data

How the results depend on the processing

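The counts of 1128 called genes, 347 higher and 781 lower, stayed within 1.5 times under quantile normalisation, both other filters, the mean of the probe sets, the 4 arrays alone, eBayes without trend or with robust estimation, no fold threshold and the added panel array, with 887 to 1372 called. Testing every probe set by itself gave 2022 called, 813 higher and 1209 lower, over more tested features. Without the term for the WT-titled arrays 679 were called and 435 were lower. Neither compared cell type has WT-titled arrays, so the log2 differences stayed the same and only the estimated spread changed. Without the term, differences between the WT-titled and the other cMoP and SMP arrays count as spread. What lies behind those differences was not tested. With 1 array left out, 538 to 892 were called, 178 to 312 higher and 360 to 580 lower. In these fits the lone array of a group was assumed to vary like the other groups. The replicate block gave 1222 called genes, 384 higher and 838 lower, on 7 residual degrees of freedom. Of the differences of 166 named genes under each alternative, 2345 kept direction and side of the threshold, 124 lost the call, 14 gained it and 1 turned: the log2 difference of Prtn3 was 0.38 with the panel array added. That array ended 24 calls, those of Adamdec1, Ccl2, Cd33, Clec4a2, Clec5a, Ctsc, Ctsk, F5, Fabp7, Flt3, Gla, Hadh, Hvcn1, Itga6, Klf2, Loxl3, Nr1h3, Ptgr1, Rbpj, Runx3, Spry2, Tfec, Thbs1 and Treml2. Omitting the WT term ended 14, Ets2, Rbpj, Ndufa1, Uqcrc2 and the 5 lower lysosomal genes among them. The 4 arrays alone ended 10, Hes1, Socs6, Ctsk, Loxl3 and Nr1h3 among them. The mean of the probe sets ended 5, those of Acss1, Gla, Nr2f6, Siglec1 and St3gal6. The replicate block ended 3, Fcgrt, Mvd and Prtn3, and added 3, Bcl6, Cebpb and Nr4a1. Ceacam1, Bcl6, Klf6 and Itgav gained a call with the mean of the probe sets, Ceacam1, Bcl6, C5ar1, Cebpb and Nr4a1 with the 4 arrays alone, and C5ar1 and Nr4a1 with the panel array added. Of 67 called genes named here that have several probe sets tested, 37 had each set called in 1 direction, 30 had a set not called, and none had sets called in opposite directions. Of 22 such genes that were not called, 7 had a set called by itself, Bcl6, Ceacam1, Csf1r, Itgav, Klf6, Lyz1 and Pgk1. The limits are 2 arrays a group, unknown sources of the replicates, the shared floor, and 1 marrow SatM array of the panel that stands apart. Loss of the calls of the oxidative phosphorylation genes with 1 array left out is given with those genes.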

Other observations

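Granule genes that the account above leaves aside gave the largest rise. Prg2, the eosinophil major basic protein, measured 12.69 and 11.51 in SatM and lay at the floor on both inflammatory monocyte arrays, at least 891-fold higher (limma, adjusted p = 1.91e-05). Epx, eosinophil peroxidase, measured 11.11 and 8.62 in SatM and was at the floor in inflammatory monocytes, at least 190-fold higher (adjusted p = 2.85e-05). Both were also high on the marrow SatM array of the tissue panel, at 11.78 and 9.27, and at the floor on its blood SatM array. Spleen eosinophils averaged 14.08 for Prg2 and 14.49 for Epx. Camp, the antimicrobial peptide of neutrophil granules, measured 10.14 and 11.45 in SatM, against 7.78 and 6.55 in inflammatory monocytes (log2 difference 3.63 ± 0.83, adjusted p = 0.0144), and its adjusted p was 0.121 without SatM replicate 2 and 0.147 without inflammatory monocyte replicate 2. Ltf, lactoferrin, measured 9.03 and 10.14 in SatM, against 5.65 and 4.68 in inflammatory monocytes (log2 difference 4.42 ± 1.29, adjusted p = 0.0476), and its adjusted p was 0.0964 without SatM replicate 1, 0.222 without SatM replicate 2, 0.141 without inflammatory monocyte replicate 1 and 0.265 without inflammatory monocyte replicate 2. The marrow panel array measured 14.69 for Camp and 12.93 for Ltf, and the blood panel array 3.47 and 2.30.

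The marrow SatM array of the panel held further genes that both SatM arrays of the comparison lacked or held at lower levels. Prtn3, the proteinase of progenitor granules, measured 11.67 there, and 2.58 and 3.39 in SatM, against 5.75 and 5.25 in inflammatory monocytes. Mki67, a gene of dividing cells, measured 11.51 there, and 8.16 and 7.89 in SatM, against 7.46 and 7.16 in inflammatory monocytes. Slc4a1, the anion exchanger of red cells, measured 9.39 there, and 2.30 and 2.36 in SatM, against 2.30 and 2.36 in inflammatory monocytes.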
